A study of Mus musculus with 9 samples.

Results

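The histone genes of the deposited count table are 79 of its 56860 genes. They were chosen by symbol alone, as every gene name that begins with the old prefix Hist1h to Hist4h or with H1f, H2ac, H2bc, H3c, H4c, H2az, H2ax or H3f. The pattern took 86 rows, of which 6 named as pseudogenes were skipped. It also took H3f3aos, an RNA antisense to H3f3a that is no histone gene and is given apart, which makes 80 members in all. Of the 79 histone genes, 67 are replication-dependent (6 H1, 18 H2A, 18 H2B, 12 H3 and 13 H4 genes) and 12 are variants (5 H1, 3 H2A and 4 H3 genes). The replication-dependent genes lie on chromosome 13 (54 genes), chromosome 3 (10 genes), chromosome 11 (2 genes) and chromosome 6 (1 gene).

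The libraries were made from RNA of mouse spleen cells labelled as CD4+ T cells, in 3 groups of 3, and they belong to a study of luteolin, a plant flavonoid, in a mouse model of rheumatoid arthritis. The first group is labelled control, the second comes from mice labelled CIA, and the third from CIA mice that received luteolin. Strain, age, sex, dose and time of treatment are not given in the sources used here. The labels do not say whether replicates were separate animals, so p-values measure only the spread between these libraries.

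Histones are the proteins around which DNA is wound: H2A, H2B, H3 and H4 form the core of the nucleosome, and linker histone H1 binds the DNA between nucleosomes. Replication-dependent histone genes supply new chromatin during S phase, and their mRNAs end in a conserved stem-loop, bound by SLBP, in place of a poly(A) tail. Variant histones are made from polyadenylated mRNAs through the cell cycle and in resting cells. Some replication-dependent genes also give polyadenylated transcripts, which extend past the stem-loop. The library kit is named as a stranded mRNA kit, and how it selects mRNA is not given in the sources used here.

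The stem-loop is the sequence that sets the replication-dependent mRNAs apart. It was searched for as 16 bases with a paired stem of 6 bases and a loop of 4 bases (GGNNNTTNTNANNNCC) in GENCODE M21 transcripts, and was found in 42 of the 62 replication-dependent genes that matched. Among variants it was found in 1 of 10, H2ax, and among all 58797 protein-coding transcripts in 149, or 0.253%. The forms below differ between families and are shown for the genes that the results turn on, with the loop in capitals.
H1f2, H2ac19 and 21 other H1, H2A, H2B and H3 genes: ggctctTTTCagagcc
H4c9 and H4c14: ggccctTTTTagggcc
The most frequent H4 form, in 6 genes: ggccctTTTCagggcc
H2ax: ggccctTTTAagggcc
The first form was found in 23 genes, from each family but H4. No match in the annotated transcripts of the other 20 genes, H2bc4, H2bc21 and H2bc23 among them, says only that these letters are not in those transcripts.

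Promoters were read from the RefSeq table for GRCm38.p6, which gives 250 bases before and 50 after each annotated start and holds 68 of the 80 members. A set of 6 short motifs was searched on both strands and independently of each other. TATAAA is the TATA box and CCAAT the CCAAT box. The octamer ATTTGCAT is bound by POU factors. The letters AAACACA are an element known from H1 promoters. Sites of the E2F type were searched in a form with TTTGGCGC and in another form with TTTCGCGC. TATAAA occurred in 57.6% of 59 replication-dependent promoters and in 13.6% of all 32851 promoters in the table. CCAAT occurred in 86.4% against 37.4%, in every H1, H2A, H2B and H3 promoter of the table but in 3 of 11 H4 promoters. The octamer occurred in 46.7% of H2B and 35.3% of H2A promoters and in none of H1, H3 or H4, against 1.74% of all promoters. AAACACA occurred in 5 of 6 H1 promoters, against 7.18% of all promoters. TTTCGCGC occurred in 15.3% of replication-dependent promoters and 0.323% of all, and TTTGGCGC in none and 0.514%. The entries absent from the table are H1f9, H2ac25, H2ax, H2bc21, H2bc24, H2bc27, H2bc4, H3c1, H3c7, H3f3aos, H4c14 and H4c16.

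The 160 bases before the start are printed for 3 genes, with these motifs in capitals. H1f2 supplied most of the replication-dependent H1 signal, and H2bc23 had the largest fold change of all tested members. The stretch of H2bc8 overlaps that of H2ac8, which runs the other way and had the largest fall in CIA among tested members.
H1f2, chr13:23738647-23738806, plus strand: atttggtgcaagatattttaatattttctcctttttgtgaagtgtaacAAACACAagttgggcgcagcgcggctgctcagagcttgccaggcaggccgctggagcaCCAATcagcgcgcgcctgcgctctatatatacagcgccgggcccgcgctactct
H2bc8, chr13:23571240-23571399, plus strand: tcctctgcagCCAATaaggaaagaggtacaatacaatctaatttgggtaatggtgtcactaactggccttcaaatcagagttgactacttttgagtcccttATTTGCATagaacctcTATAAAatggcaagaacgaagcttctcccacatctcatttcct
H2bc23, chr13:21810200-21810359, minus strand: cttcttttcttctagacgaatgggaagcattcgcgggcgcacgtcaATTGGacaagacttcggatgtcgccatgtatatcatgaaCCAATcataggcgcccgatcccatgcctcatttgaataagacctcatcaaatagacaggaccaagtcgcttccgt
In the H2bc23 stretch, CCAAT occurs on both strands (ATTGG is its reverse complement), and neither TATAAA nor the octamer occurs. In the H2bc8 stretch the octamer stands just upstream of TATAAA, and the same letters lie in the stretch of H2ac8 on the other strand.

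The libraries held 31234177 to 41815573 counts, and 19348 genes passed the filter on low counts. Cd4 itself stood at 2.46 to 3.65 CPM (counts scaled to library size) in the libraries labelled control, against 82.1 to 151 in CIA and 98.5 to 106 with luteolin. All 10 markers of CD4 T cells were detected, with summed levels of 155 to 174 CPM in control, 307 to 515 in CIA and 330 to 354 with luteolin. The 8 B cell markers summed to 2013 to 2071, 279 to 1558 and 415 to 513 CPM, and the 11 neutrophil markers to 1995 to 2371, 6469 to 10994 and 8401 to 8845 CPM. The 8 macrophage markers summed to 120 to 172, 46.9 to 52.6 and 211 to 245 CPM. The 12 erythroid markers summed to 82.4 to 87.2, 104 to 129 and 110 to 121 CPM, and the 2 CD8 markers to 36.3 to 55.2, 12.0 to 15.1 and 10.2 to 13.7. Such sums can hide members that go the other way. Of 9 tested erythroid markers, 2 rose and 6 fell with luteolin against CIA in the edgeR test given below. Against control, 2 were higher and 4 lower with luteolin. Of 11 neutrophil markers, 6 rose and 5 fell with luteolin against CIA. Over all tested genes, 23.1% rose and 24.2% fell with luteolin against CIA, and 24.2% were higher and 20.8% lower than control. The 5 plasma cell markers summed to 226 to 227, 375 to 460 and 470 to 524 CPM, and the 5 mast cell and basophil markers to 2.46 to 3.85, 30.4 to 53.6 and 150 to 178. No marker of these lists was at 0 in every library. The part of these other cell types in the histone differences was not tested, and in bulk RNA fewer cells of a type and less RNA per cell cannot be told apart.

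Most replication-dependent histone genes were at or near the limit of detection. Of the 67, 47 never reached 10 counts in any library: 3 of 6 H1, 12 of 18 H2A, 11 of 18 H2B, 11 of 12 H3 and 10 of 13 H4 genes. H3c10, H2bc14, H4c2, H2bc1 and H2ac1 were at 0 in all 9 libraries, as was the variant H1f7. A count of 0 allows a level of up to 0.0712 to 0.0992 CPM, taken as 3 counts of a library's scaled total and covering counting error only. Where both mates of a pair were counted, the same bound comes to 6 counts, or 0.142 to 0.198 CPM. The 51 replication-dependent genes that did not pass the filter held 846 counts over all 9 libraries together, and none had more than 14 in any library. The filter passed 16 replication-dependent genes, 6 variants and H3f3aos. With no filter, 1 gene among these 51 passed the edgeR test: H3c3, with 0, 0 and 0 counts in control, 2, 6 and 8 in CIA, and 4, 0 and 6 with luteolin. It was higher in CIA than control (adjusted p = 0.00835) and higher with luteolin than control (adjusted p = 0.0416). A gene could pass through the group where it was high, so the tested genes are not a sample of the family.

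**Figure D1:**
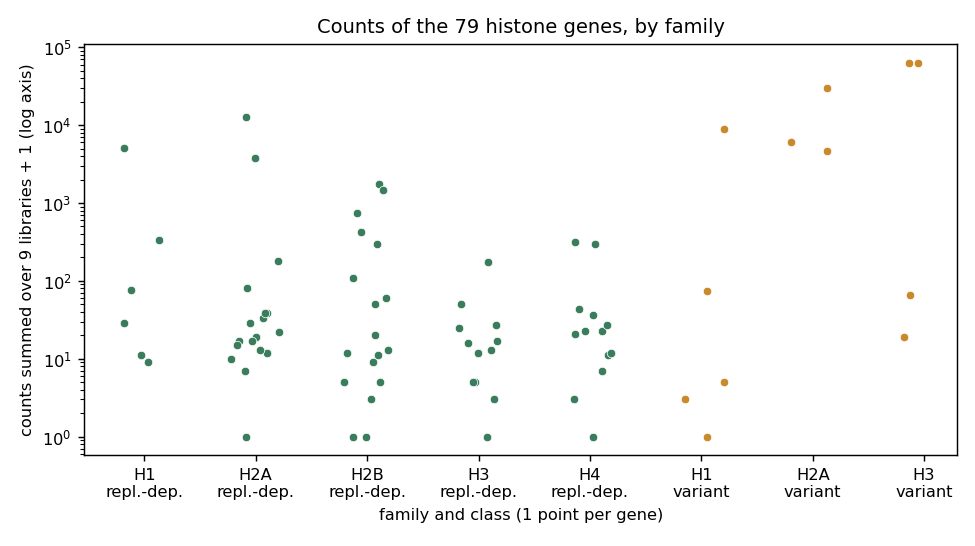
Counts summed over the 9 libraries, plus 1, on a log axis for each of the 79 histone genes, by family and class; each point is 1 gene, and points are spread sideways for legibility. The variant H3f3a lies near the top with 63023 counts, the highest replication-dependent gene is H2ac19 with 12836, and genes at 0 lie at 1 on the axis.

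The signal of each replication-dependent family came mostly from 1 or 2 genes. Over the 9 libraries, H1f2 supplied 91.7% of the replication-dependent H1 level, H2ac19 75.9% of H2A and H3c14 51.5% of H3. Reads of H2ac19 cannot be told apart from those of Gm20632, which covers it on the other strand. The share of H2ac19 and its rank given below may therefore not be its own. H3c14 lies within the exons of Gm20634. In H2B the first were H2bc4 with 35.3% and H2bc21 with 29.1%, and in H4 they were H4c14 with 39.0% and H4c9 with 36.5%. Within groups the order of these pairs varied: H2bc21 stood above H2bc4 in control (means of 6.55 and 4.84 CPM), and H4c9 above H4c14 in CIA (0.961 and 0.903 CPM) and with luteolin (0.609 and 0.494 CPM). The genes behind H3c14 were H3c15 and H3c3, with means of 0.159 and 0.0854 CPM, and the third H4 gene was H4c12 with 0.133 CPM, none of which passed the filter. Per kilobase of exonic length, the mean level over the 9 libraries was 77.2 CPM per kb for H2ac19, 64.8 for the variant H3f3b, 55.2 for H3f3a and 52.1 for H2az1. H2ac19 stood first in that order through the CIA libraries, at 130 CPM per kb. In control it stood at 48.2, below H3f3b (65.4) and H3f3a (62.7), and with luteolin at 53.7, below H3f3b (70.5) and H2az1 (60.4). The mean over the 9 libraries was 13.5 for H1f0, 13.3 for H2ax, 9.90 for H1f2 and 8.84 for H2az2. H3c14, the highest of the replication-dependent H3 genes by CPM, stood at 0.307 CPM per kb. H3f3a and H3f3b thus stood above H3c14 in level per length in every group.

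Whether a replication-dependent gene reached 10 counts was set beside how far its annotated transcript runs past the stem-loop. Of 20 genes whose annotated transcript ran at least 100 bases past the stem-loop, 9 reached 10 counts in some library, with a median of 41.0 counts over all libraries. Of 22 genes whose transcript ended sooner, 3 reached 10 counts (H2ac4, H2ac18 and H2ac19), with a median of 11.5. Near-identical copies are common among these genes, and how reads on several genes were counted is not given in the sources used here. Of 14 genes with under 10% of their 100-base windows shared with another gene's transcripts, 10 stayed below 10 counts, as did 35 of 48 genes with more shared windows. These counts are descriptions of the annotation beside the levels. They were not scaled to length, and transcript lengths differ widely (7425 bases for H1f3 and 528 for H2ac19), so the part of length was not tested. Matched genes without a stem-loop match are in neither stem-loop class. Among them are H2bc4, H2bc21 and H2bc23, with 1772, 1467 and 294 counts over all libraries.

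Among the variants, 4 of 6 tested genes passed the test between CIA and control (edgeR, adjusted p below 0.05, with Benjamini-Hochberg adjustment over all tested genes), 2 higher and 2 lower. The same test called 51.1% of all genes in that comparison, 26.6% higher and 24.5% lower. H1f0 and H2az1 rose, and H2ax and H3f3a fell. Between CIA with luteolin and CIA, 3 of 6 passed, where 47.3% of all genes did (23.1% higher, 24.2% lower): H2ax and H3f3b rose and H2az2 fell. Between CIA with luteolin and control, 3 of 6 passed, where 45.0% of all genes did (24.2% higher, 20.8% lower): H1f0 and H2az1 were higher and H3f3a was lower. These counts rest on only 6 genes, and the comparisons share libraries pairwise. Levels below are CPM scaled by TMM in the order of replicates 1, 2 and 3, and differences are log2 fold changes ± standard error from edgeR.

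H1f0 encodes H1.0, the linker histone known from resting and differentiated cells. It stood at 12.5, 14.6 and 9.81 CPM in control, at 30.2, 49.0 and 44.1 in CIA, and at 32.1, 29.7 and 28.5 with luteolin. Every CIA library and every luteolin library lay above every control library. The difference was 1.74 ± 0.19 between CIA and control (edgeR adjusted p = 5.69e-05), the largest rise among the variants, and 1.29 ± 0.18 between luteolin and control (adjusted p = 0.00031). The difference of luteolin from CIA was -0.45 ± 0.18 and did not pass (adjusted p = 0.0624), with overlapping groups. Without CIA replicate 1, its lowest CIA library, that difference was -0.63 and passed (edgeR adjusted p = 0.00284). The gene lies at chr15:78912650-78914704 on the plus strand in the table's coordinates and shares 7.93% of its exonic bases with Gm49544 on the other strand.

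H2az1 and H2az2 encode the H2A.Z proteins, which replace H2A near promoters. H2az1 stood at 59.0, 59.7 and 69.1 CPM in control, at 86.3, 96.3 and 141 in CIA, and at 108, 103 and 111 with luteolin. Both CIA groups lay above control without overlap, and CIA replicate 3 was the highest library. The difference from control was 0.79 ± 0.16 in CIA (edgeR adjusted p = 0.00216) and 0.78 ± 0.16 with luteolin (adjusted p = 0.00251). Luteolin and CIA libraries differed by -0.01 ± 0.16 (adjusted p = 0.972). Without CIA replicate 3 that last difference was 0.23 and passed (edgeR adjusted p = 0.0484), and its sign also turned under 7 other settings, each at or below 0.04 and none passing. H2az2 stood at 15.1, 14.3 and 16 CPM in control, 17.1, 14.9 and 15.1 in CIA, and 12.6, 13.4 and 11.4 with luteolin. Its luteolin libraries were the lowest of the 9. It fell by 0.33 ± 0.11 with luteolin against CIA (adjusted p = 0.0244), a call that was lost without CIA replicate 1 (-0.28) and without luteolin replicate 1 (-0.34) or 3 (-0.28) and under 3 other settings. It did not pass between CIA and control (0.05 ± 0.11, adjusted p = 0.709). Against control its difference with luteolin was -0.28 ± 0.11 (adjusted p = 0.0501), which passed without CIA replicate 1 (-0.28, adjusted p = 0.0312) and without CIA replicate 3 (-0.28, adjusted p = 0.0307).

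H2ax encodes H2A.X, the variant that is phosphorylated beside DNA breaks, and its transcript carries the stem-loop shown above. It stood at 18.0, 20.5 and 21.1 CPM in control, at 14.1, 10.6 and 10.7 in CIA, and at 22.1, 25.6 and 23.5 with luteolin. The CIA libraries were the lowest and the luteolin libraries the highest, with no overlap between any groups. It fell by 0.75 ± 0.13 in CIA (edgeR adjusted p = 0.000899) and rose by 1.01 ± 0.13 with luteolin against CIA (adjusted p = 0.000136). Against control the luteolin libraries differed by 0.26 ± 0.13 (adjusted p = 0.124), a difference that passed without CIA replicate 1 (0.26, adjusted p = 0.0459). In the table's coordinates the gene lies at chr9:44245991-44247374, plus strand, and shares 10.2% of its exonic bases with Gm55497 on the other strand.

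H3f3a and H3f3b encode the same protein, H3.3, the replacement H3 of transcribed chromatin. H3f3a stood at 205, 226 and 228 CPM in control, 204, 186 and 186 in CIA, and 164, 172 and 172 with luteolin. The groups descended in that order without overlap, and CIA replicate 1 lay just below control replicate 1. It fell by 0.38 ± 0.07 with luteolin against control (edgeR adjusted p = 0.00199). Its fall in CIA was 0.20 ± 0.07 (adjusted p = 0.0454), which was lost under 12 of the alternative settings, 7 of them the removal of a library. Those libraries were control replicates 2 (-0.18) and 3 (-0.16), CIA replicates 2 (-0.17) and 3 (-0.17), and each luteolin replicate (-0.20 each). The difference of luteolin from CIA was -0.18 ± 0.07 (adjusted p = 0.0644) and passed without CIA replicate 3 (-0.21, adjusted p = 0.0353). H3f3b stood at 192, 207 and 185 CPM in control, 178, 161 and 183 in CIA, and 211, 213 and 206 with luteolin. It rose by 0.27 ± 0.08 with luteolin against CIA (adjusted p = 0.0148), with no overlap, and the call was lost without CIA replicate 2 (0.21) or luteolin replicate 2 (0.26). The 2 genes of the same protein therefore passed in opposite directions against different groups, and no test of the difference between them was run. H3f3b did not pass between CIA and control (-0.16 ± 0.08, adjusted p = 0.107), although it did without CIA replicate 3 (-0.19, adjusted p = 0.0480).

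**Figure D2:**
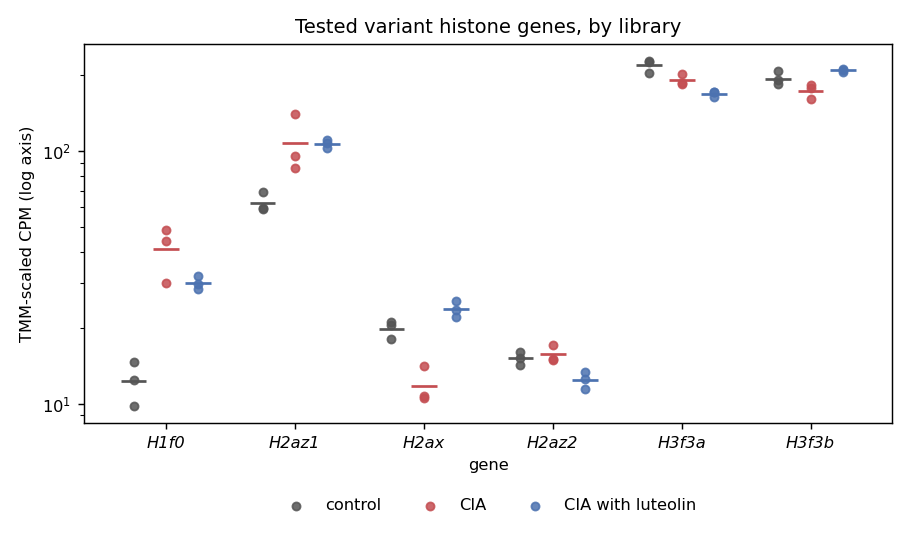
Levels of the 6 tested variant histone genes in each library (CPM scaled by TMM, log axis), with points for replicates and short lines for group means. The control, CIA and luteolin means of H1f0 are 12.3, 41.1 and 30.1 CPM and those of H2ax are 19.9, 11.8 and 23.7 CPM.

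H3f3aos, the antisense RNA, shares 160 exonic bases with H3f3a on the other strand. It stood at 1.13, 1.08 and 1.27 CPM in control, 1.03, 1.23 and 1.22 in CIA, and 0.498, 0.227 and 0.327 with luteolin. Only the luteolin libraries stood apart, by -1.71 ± 0.31 from CIA (edgeR adjusted p = 0.0013). Its counts were 0.451% of those of H3f3a, and without a stated strand setting reads of the shared bases cannot be told apart.

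Among the replication-dependent genes, 9 of 16 tested passed between CIA and control, 5 higher and 4 lower. That is 9 of 67 in the family, and the background was 51.1% of all genes (26.6% higher, 24.5% lower). The median log2 fold change of the 16 was -0.07, and that of all tested genes -0.01. Between luteolin and CIA, 4 of 16 passed, all lower, where 47.3% of all genes passed and 24.2% were called lower. The median was -0.61 against -0.04 over all tested genes. Between luteolin and control, 7 of 16 passed, all lower, where 45.0% of all genes passed and 20.8% were called lower. The median there was -0.52 against -0.01. With no filter, 6 were lower and 1, H3c3, was higher in that comparison. Groups did not overlap for 9, 4 and 8 of the 16 in the 3 comparisons, where 58.7%, 55.7% and 63.3% of all tested genes did not overlap. With members sharing over 25% of their exonic bases left out, a choice made after seeing the data, 2 of 11 passed between luteolin and CIA. These were H2bc23 and H2bc24. That limit does not count copied sequence, and 94.8% of the 100-base windows of H2bc23 occur in another gene's transcripts. The calls left out, H2ac19 and H3c14, have all of their windows in another gene's transcripts. Without control replicate 3 or without luteolin replicate 2, 4 of 16 passed between luteolin and control.

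**Figure D3:**
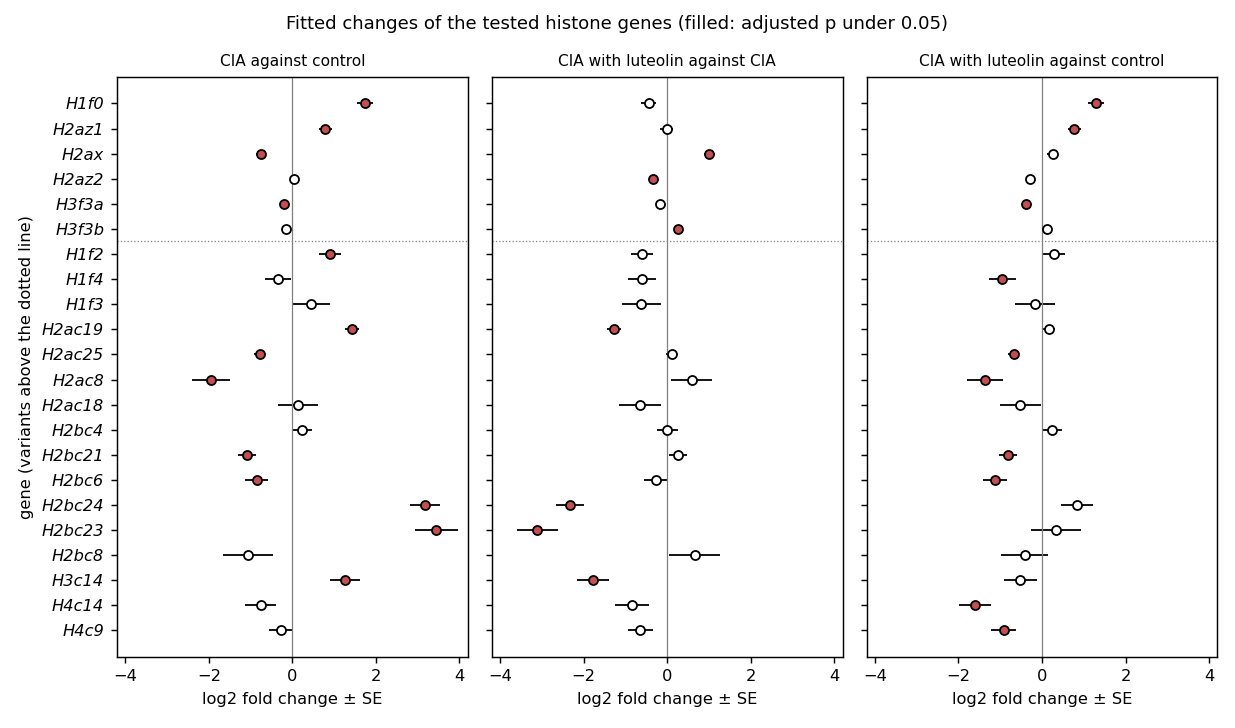
Log2 fold change of each tested histone gene in the 3 comparisons, with standard errors from edgeR; filled points passed at an adjusted p of 0.05. H2bc23 and H2bc24 lie above 3 between CIA and control and below -2 between luteolin and CIA.

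H1f2 encodes linker histone H1.2 and was the main replication-dependent H1 gene. It stood at 11.6, 14.5 and 7.94 CPM in control, 21.5, 28.5 and 13.3 in CIA, and 13.1, 15.4 and 13.2 with luteolin. CIA replicate 3 lay below control replicate 2, so the groups overlapped. It rose by 0.89 ± 0.27 in CIA (edgeR adjusted p = 0.0165), a call lost without control replicate 3 (0.70, adjusted p = 0.0597) and without CIA replicate 2 (0.62, adjusted p = 0.0752). Between luteolin and CIA the difference was -0.60 ± 0.26 (adjusted p = 0.0819), which passed without CIA replicate 3 (-0.85, adjusted p = 0.00271). H1f4 (H1.4) stood at 1.38, 1.23 and 1.39 CPM in control, 1.11, 1.35 and 0.662 in CIA, and 0.783, 0.453 and 0.831 with luteolin. Its luteolin libraries lay below all control libraries, by -0.95 ± 0.32 (adjusted p = 0.033), and the call was lost without any single control replicate (-0.92 to -1.01) and without luteolin replicate 1 (-1.06) or 2 (-0.72). H1f4 and H2bc6 share 496 exonic bases on the same strand. Without CIA replicate 3, H1f4 also passed between luteolin and CIA (-0.84, adjusted p = 0.0413; -0.60 ± 0.33 and adjusted p = 0.155 with it). H1f3 (H1.3) stood at 0.142 to 0.389 CPM across the 9 libraries and passed in no comparison.

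H2ac19 carried most of the replication-dependent H2A signal. It stood at 22.9, 25.3 and 28 CPM in control, at 51.9, 67.4 and 86.4 in CIA, and at 26.3, 28.9 and 29.8 with luteolin. Every CIA library exceeded every other library, and the control and luteolin groups overlapped. It rose by 1.43 ± 0.16 in CIA (edgeR adjusted p = 8.28e-05) and fell by 1.27 ± 0.16 with luteolin against CIA (adjusted p = 0.000125). Between luteolin and control it differed by 0.16 ± 0.16 (adjusted p = 0.457). The gene, at chr3:96147065-96147592 on the minus strand in the table's coordinates, lies wholly inside the exons of Gm20632 on the other strand. Gm20632 had 12943 counts over the 9 libraries and H2ac19 12836, or 99.2% of them, so the reads of these genes cannot be told apart. All of its 100-base windows also occur in another gene's transcripts.

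H2ac25 and H2ac8, also H2A genes, moved the other way. H2ac25 stood at 15, 16.6 and 14.7 CPM in control, 9.81, 9.30 and 7.71 in CIA, and 9.18, 11.1 and 8.61 with luteolin. Control lay above both other groups without overlap. It fell by 0.79 ± 0.13 in CIA (edgeR adjusted p = 0.000829) and by 0.68 ± 0.13 with luteolin against control (adjusted p = 0.00205), and shares 33.0% of its exonic bases with Trim17 on the same strand. H2ac8 stood at 0.600, 0.922 and 1.52 CPM in control, 0.334, 0.293 and 0.132 in CIA, and 0.475, 0.352 and 0.327 with luteolin, at 4 to 48 counts a library. All control libraries lay above all others. It fell by 1.96 ± 0.46 in CIA (edgeR adjusted p = 0.00487), the largest fall of that comparison among the tested members. With luteolin against control it fell by 1.37 ± 0.43 (edgeR adjusted p = 0.0231). The latter call was lost without control replicate 3 (-0.97, adjusted p = 0.1) and without luteolin replicate 2 (-1.31) or 3 (-1.27). H2ac18 stood at 0.148 to 0.410 CPM across the libraries and passed in no comparison. All of its exonic bases overlap other genes, and 88.3% of its 100-base windows occur in another gene's transcripts. Its reads therefore cannot be told apart from those of such genes.

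H2bc23 and H2bc24 encode H2B and had the largest fold changes of all tested members. H2bc23, at chr13:21990782-21994367 on the minus strand in the table's coordinates, stood at 0.300, 0.0512 and 0.316 CPM in control, or 12, 2 and 10 counts. In CIA it stood at 1.33, 2.54 and 3.41 CPM, or 48, 87 and 103 counts, and with luteolin at 0.237, 0.302 and 0.297 CPM, or 10, 12 and 10 counts. The CIA libraries lay above all 6 others. It rose by 3.45 ± 0.51 in CIA (edgeR adjusted p = 0.00037) and fell by 3.11 ± 0.49 with luteolin against CIA (adjusted p = 0.000526). H2bc24, at chr13:22017913-22021700 on the plus strand, stood at 0.450, 0.205 and 0.380 CPM in control, 2.14, 2.95 and 4.33 in CIA, and 0.522, 0.629 and 0.713 with luteolin. It rose by 3.17 ± 0.36 in CIA (adjusted p = 7.92e-05) and fell by 2.33 ± 0.33 with luteolin (adjusted p = 0.000259), again with the CIA libraries apart. Both genes lie among other histone genes of chromosome 13, with H2ac23, H4c17, H4c18 and H2ac24 between them. Of the 100-base windows of H2bc23, 94.8% occur in another gene's transcripts, most often those of Hist1h2br, an older name matched to no member. H2bc24 could not be matched to the transcripts searched, and whether it is a copy of H2bc23 was not tested. Reads of related genes may be split among them, so the changes of both genes may not be separate results. Neither gene passed between luteolin and control (0.34 ± 0.60, edgeR adjusted p = 0.676, and 0.84 ± 0.39, adjusted p = 0.104). Every luteolin library of H2bc24 still lay above every control library, in a comparison where groups did not overlap for 63.3% of all tested genes.

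The other tested H2B genes did not rise in CIA with all libraries. H2bc4, the H2B gene with the highest mean over the 9 libraries, stood at 4.65, 5.43 and 4.43 CPM in control, 7.31, 6.32 and 3.31 in CIA, and 5.55, 5.26 and 6.29 with luteolin. The CIA libraries ranged both above and below the rest. It did not pass between CIA and control (0.23 ± 0.24, edgeR adjusted p = 0.46), but did without CIA replicate 3 (0.49, adjusted p = 0.0165). H2bc21 stood at 5.85, 7.02 and 6.77 CPM in control, 3.56, 3.39 and 2.28 in CIA, and 3.37, 4.71 and 3.06 with luteolin, with control above all others. It fell by 1.08 ± 0.21 in CIA (adjusted p = 0.00179) and by 0.82 ± 0.21 with luteolin against control (adjusted p = 0.00846). H2bc6 stood at 3.83, 3.20 and 2.97 CPM in control, 2.08, 2.22 and 1.19 in CIA, and 1.69, 1.01 and 1.90 with luteolin. Control lay above every other library. It fell by 1.13 ± 0.28 with luteolin against control (adjusted p = 0.00807) and by 0.86 ± 0.28 in CIA (adjusted p = 0.0261), the latter lost without control replicate 1 (-0.75), control replicate 2 (-0.89) or CIA replicate 3 (-0.63). H2bc8 stood at 0.0662 to 0.666 CPM and passed in no comparison with all libraries, though it did between CIA and control without CIA replicate 1 (-1.79, adjusted p = 0.0449; -1.07 ± 0.60 with it).

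H3c14 was the only replication-dependent H3 gene tested, and it encodes H3.2. It stood at 0.250, 0.512 and 0.475 CPM in control, 1.0, 0.761 and 1.19 in CIA, and 0.261, 0.352 and 0.238 with luteolin. The CIA libraries lay above all others. It rose by 1.25 ± 0.36 in CIA (edgeR adjusted p = 0.0145) and fell by 1.77 ± 0.37 with luteolin against CIA (adjusted p = 0.00298). The rise was lost without control replicate 1 (0.99, adjusted p = 0.055). H3c14 lies within the exons of Gm20634 on the same strand, with 176 and 427 counts, and all of its 100-base windows occur in another gene's transcripts.

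H4c14 and H4c9, the tested genes for the core histone H4, had their lowest means with luteolin. H4c14 stood at 1.5, 1.79 and 1.27 CPM in control, 1.06, 0.527 and 1.12 in CIA, and 0.712, 0.503 and 0.267 with luteolin. Every luteolin library lay below every control library, and the CIA group overlapped the luteolin group. It fell by 1.60 ± 0.38 with luteolin against control (edgeR adjusted p = 0.00632) and did not pass between CIA and control (-0.76 ± 0.37, adjusted p = 0.108). Between luteolin and CIA it differed by -0.84 ± 0.40 (adjusted p = 0.106) and passed without CIA replicate 2 (-1.12, adjusted p = 0.0416). H4c9 stood at 1.0, 1.28 and 1.20 CPM in control, 0.778, 1.11 and 0.992 in CIA, and 0.807, 0.604 and 0.416 with luteolin. It fell by 0.91 ± 0.30 with luteolin against control (adjusted p = 0.0284), without overlap. That call was lost without control replicate 2 (-0.84) or 3 (-0.89) and without luteolin replicate 2 (-0.90) or 3 (-0.71). Between luteolin and CIA, H4c9 differed by -0.64 ± 0.30 and did not pass (edgeR adjusted p = 0.106), with overlapping groups.

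**Figure D4:**
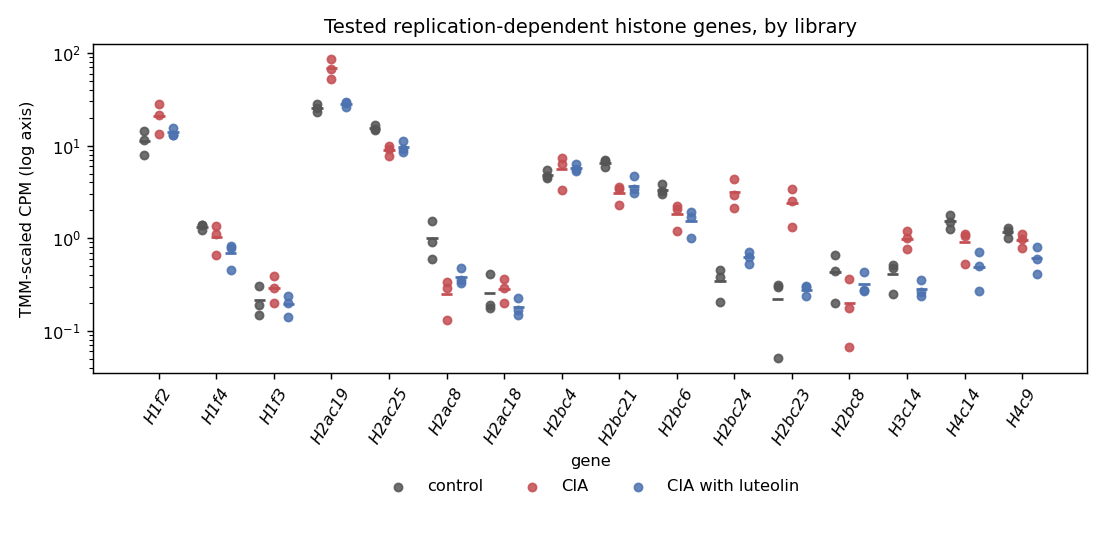
Levels of the 16 tested replication-dependent histone genes in each library (CPM scaled by TMM, log axis), with points for replicates and short lines for group means. H2ac19, H2bc23, H2bc24 and H3c14 are higher in all CIA libraries than in any other library, whereas H2ac25, H2bc21, H2bc6 and H2ac8 are highest in control.

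Summed over all 67 genes, the replication-dependent level was 76.0 ± 5.0 CPM in control (SD, n = 3), 123 ± 12.6 in CIA and 69.3 ± 3.20 with luteolin. Without H2ac19 the same sum was 50.6 ± 5.14, 54.4 ± 10 and 40.9 ± 2.18 CPM. The CIA libraries of that reduced sum, 56.4, 63.2 and 43.4 CPM, overlapped control. Against luteolin the CIA replicate with 43.4 CPM tied with luteolin replicate 2, also at 43.4, and the other CIA libraries lay above all luteolin libraries. By family, the H4 sum was 3.23 ± 0.273, 2.79 ± 0.144 and 1.46 ± 0.456 CPM, and the H3 sum 0.781 ± 0.262, 1.78 ± 0.390 and 0.699 ± 0.218. The H2B sum was 16.2 ± 0.874, 16.9 ± 1.44 and 12.7 ± 0.300, and the H1 sum 13.1 ± 3.32, 22.6 ± 8.05 and 14.9 ± 1.03. The 51 genes that were not tested summed to 2.21 ± 0.0117, 3.27 ± 0.0885 and 2.40 ± 0.470 CPM. The variant sum was 525 ± 20.6, 543 ± 33.5 and 553 ± 3.16 CPM, and its H1 part was 12.5 ± 2.47, 41.2 ± 9.73 and 30.5 ± 2.00. Over the 47 replication-dependent genes sharing at most 25% of their exonic bases, the sum was 32.5 ± 4.06, 42.3 ± 8.96 and 29.0 ± 1.16 CPM. Reads of H2ac19 cannot be told apart from those of Gm20632, so its part in the full sum may not be its own. These sums carry no test.

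**Figure D5:**
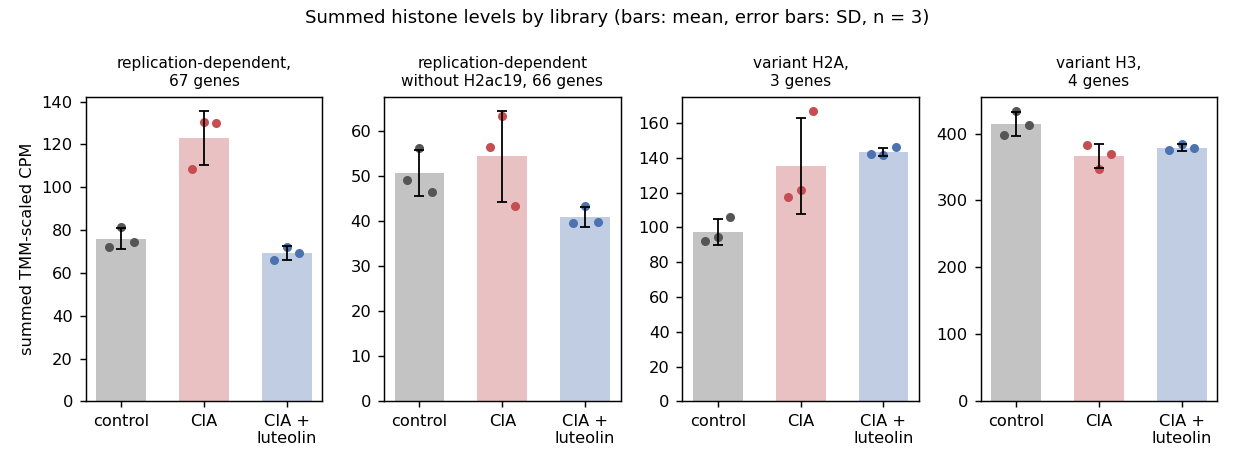
Summed level of the histone classes in each library (CPM scaled by TMM), for all replication-dependent genes, the same without H2ac19, variant H2A and variant H3, with points for libraries, bars for means and error bars for the SD (n = 3). The replication-dependent sum is 76.0, 123 and 69.3 CPM in control, CIA and luteolin, and 50.6, 54.4 and 40.9 without H2ac19.

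Genes that process, transcribe and carry histones were counted from lists of their own, beside all tested genes. Of these, 26.6% rose and 24.5% fell in CIA, 23.1% rose and 24.2% fell with luteolin against CIA, and 24.2% were higher and 20.8% lower with luteolin than control. Of 19 tested genes for the 3′ end of histone mRNA, 6 rose and 6 fell in CIA, 2 rose and 3 fell with luteolin against CIA, and none was higher and 3 were lower with luteolin than control. Slbp, which binds the stem-loop, rose in CIA by 0.47 ± 0.12 (edgeR adjusted p = 0.00722), from 160, 187 and 225 CPM in control to 256, 245 and 291, with 208, 214 and 229 under luteolin. The smallest p values of the list in CIA belonged to Snrpf, an Sm protein of the processing particle (-0.78 ± 0.13), and Cstf2, a cleavage factor (-0.57 ± 0.10). Of 15 genes for transcription at S phase, 5 rose and 6 fell in CIA, 4 rose and 6 fell with luteolin against CIA, and 3 were higher and 7 lower with luteolin than control. Ccna2, cyclin A2, fell in CIA by 1.25 ± 0.16 and Ccne1, cyclin E1, by 0.93 ± 0.17, the smallest p values of that list. Npat, the coactivator at histone gene clusters, rose in CIA by 0.40 ± 0.09 (adjusted p = 0.00471) and fell by 0.44 ± 0.09 with luteolin (adjusted p = 0.00322). Of 29 histone chaperone genes, 5 rose and 13 fell in CIA, and 10 rose and 4 fell with luteolin against CIA. Against control, 3 of the 29 were higher and 13 lower with luteolin. Npm1 (-1.10 ± 0.14) and Chaf1a, a subunit of the chromatin assembly factor (-0.85 ± 0.12), led that list in CIA.

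Other variant genes outside the symbol pattern were few: 4 of 18 were tested. Cenpa, the centromeric H3, stood at 46.2, 51.9 and 45.1 CPM in control, 21.0, 16.2 and 10.9 in CIA, and 38.7, 43.5 and 36.8 with luteolin. Its CIA libraries lay below all others, and it fell by 1.57 ± 0.19 in CIA (edgeR adjusted p = 0.000116). H2aj, an H2A variant, rose by 0.43 ± 0.10 (adjusted p = 0.00503), and Macroh2a1, a macroH2A, fell by 0.64 ± 0.17 (adjusted p = 0.0102). With luteolin against CIA, 3 of the 4 rose and 1 fell, where 23.1% of all tested genes rose and 24.2% fell. Against control 1 was higher and none lower with luteolin, where 24.2% of all tested genes were higher and 20.8% lower. In CIA against control, 26.6% of all tested genes were higher and 24.5% lower.

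Genes of S phase and of mitosis were counted for comparison with the replication-dependent histones, whose mRNAs are made in S phase. Over all tested genes, 26.6% were higher and 24.5% lower in CIA (median -0.01). With luteolin against CIA, 23.1% were higher and 24.2% lower (median -0.04). With luteolin against control, 24.2% were higher and 20.8% lower (median -0.01). Of 30 S phase genes, 3 rose and 19 fell in CIA (median -0.48), 23 rose and 3 fell with luteolin against CIA (median 0.76), and 13 were higher and 1 lower with luteolin than control. Of 20 genes of G2 and M phase, none rose and 19 fell in CIA (median -1.47), and all 20 rose with luteolin against CIA (median 2.32). Against control, 17 of them were higher and none lower with luteolin (median 0.85). Rrm2, a subunit of ribonucleotide reductase, stood at 11.5, 11.3 and 11.9 CPM in control, 4.70, 3.77 and 3.71 in CIA, and 19.6, 22.2 and 18.6 with luteolin. Lig1, which joins DNA strands in replication, fell in CIA by 0.87 ± 0.10 (edgeR adjusted p = 6.57e-05). Mki67 fell by 1.58 ± 0.09 and Cenpe by 1.95 ± 0.14 in CIA. Among the tested variants, both H2ax and H3f3b had their lowest mean in CIA and their highest with luteolin. The H3f3b means were 195, 174 and 210 CPM in control, CIA and luteolin. H3f3b did not pass between CIA and control, and its luteolin libraries overlapped control. Of the 9 replication-dependent genes that passed in CIA, H1f2, H2ac19, H2bc23, H2bc24 and H3c14 rose, and H2ac25, H2ac8, H2bc21 and H2bc6 fell.

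The 5 genes whose log2 level was most like the log2 summed replication-dependent level over the 9 libraries were Sipa1l2, L1cam, Plp2, Aftph and Madd, with Pearson r of 0.994, 0.990, 0.987, 0.987 and 0.986. They were picked from 19348 genes for that likeness, so the values are a description. The sum they resemble rose in CIA mostly through H2ac19, whose reads cannot be told apart from those of Gm20632. That sum was 76.0, 123 and 69.3 CPM in control, CIA and luteolin, and 50.6, 54.4 and 40.9 CPM without H2ac19.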

How the data were processed

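RNA was extracted with TRIzol and sequenced as read pairs on a DNBSEQ-T7, per the labels' protocols. The submitters' processing notes name Trimmomatic 0.36 for trimming. The deposited values are raw counts for 56860 genes, which the authors made with featureCounts (Subread 1.5.1), per the labels' protocols. These protocols name CHOK1GS as the reference, but mm39 is the build in the processing notes, and the table's coordinates were treated as mm39. The strand setting and the rule for reads on several genes are not given in the sources used here, and the RPKM values and edgeR output that the protocols name were not used. Of 84618 values from 1 to 10, 73.4% were even (87.4% of 261 in replication-dependent histones), which would follow if each mate was counted.

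Genes were filtered with filterByExpr (minimum count 10), scaled by TMM (factors 0.950 to 1.02) and fitted with edgeR 4.0.16 in R 4.3.3, with its quasi-likelihood test and 1 coefficient for each group over all 9 libraries. Each test was 2-sided, with Benjamini-Hochberg adjustment over 19348 genes and a threshold of 0.05. The script was tested on simulated data. Replicates differed beyond sampling noise (chi-square per degree of freedom of at least 5.51). The values were 32.2 to 114 between CIA replicates, 6.73 to 16.1 in control and 5.51 to 9.41 with luteolin. All groups shared 1 estimate of the spread for each gene. Levels are CPM from TMM-scaled totals. The groups came from the labels, and alternatives were DESeq2 1.42.0, library size alone, other filters, a fit of the 6 libraries compared, a replicate block, halved counts and leaving out each library.

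The members, lists and tests were chosen with earlier results of these data known. Named with values were every tested variant, the 3 highest genes of each replication-dependent family by mean CPM, and the 3 largest rises and falls in each comparison without overlap; other members named were chosen after their values were seen. The stem-loop search was also chosen after seeing the data.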

Additional observations from a re-analysis of the deposited data

How the results depend on the processing

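The fits were repeated with DESeq2, with library size alone, with no filter and a stricter one (a mean of at least 1 CPM), with only the 6 libraries compared, with counts divided by 2, with a replicate block and without each library in turn. Replication-dependent calls between luteolin and CIA were 4 with all libraries and 2 of 8 tested under the stricter filter, which tests fewer genes; they were 2 when members sharing over 25% of exonic bases were left out, an alternative chosen after seeing the data. Between luteolin and control, 7 replication-dependent calls became 4 under the stricter filter and ranged from 4 to 7 without single libraries. Variant calls between luteolin and CIA ranged from 2 to 5 without single libraries, with 5 without CIA replicate 3. Variant calls between luteolin and control were 5 with only the 6 libraries and ranged from 3 to 5 without single libraries, with 5 without CIA replicate 1. Between CIA and control, 9 replication-dependent calls ranged from 7 to 10 without single libraries and were 6 under the stricter filter, 6 with the sharing members left out and 10 with no filter, and variant calls ranged from 3 to 4. The cause of these shifts was not tested.

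Same-numbered libraries of different groups had correlations of their deviations between 0.00654 and 0.143, and the labels do not say what a number marks, so the numbers were not taken as pairs. With the replicate block, 9, 5 and 6 replication-dependent genes and 3, 3 and 3 variants passed in the 3 comparisons, and 9794, 9148 and 8764 genes in all. Under the block H1f2 passed between luteolin and CIA (-0.54), and H3f3a in CIA (-0.20) and H1f4 between luteolin and control (-0.96) did not pass.

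Some single genes near the threshold changed side under other settings. With no filter, H1f2 (-0.58) and H1f0 (-0.42) passed between luteolin and CIA, and H4c9 (-0.90) did not pass between luteolin and control. With only the 6 libraries compared, H2ax (0.26) and H2az2 (-0.28) passed between luteolin and control, and with halved counts H2az2 (-0.28) did and H3f3a (-0.20) passed between luteolin and CIA.

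The sign turned for 9 differences, none of which had passed. Between luteolin and CIA, H2az1 was 0.0014 with DESeq2, 0.0382 with library size alone, 0.0198 with no filter, 0.0187 with the stricter filter, 0.0274 with the 6 libraries, 0.02 with the replicate block, and -0.15 to 0.23 without single libraries. H2bc4 was -0.0138 with halved counts and -0.26 to 0.23 without single libraries, and H2ac25 -0.0077 to 0.18. Between CIA and control, H3f3aos was -0.0225 with library size alone, -0.0039 with no filter and -0.0424 to 0.0938 without single libraries, H2ac18 -0.0892 to 0.64 and H2az2 -0.0085 to 0.10. Between luteolin and control, the ranges without single libraries were -0.15 to 0.66 for H2bc23, -0.39 to 0.18 for H1f3 and -0.77 to 0.0466 for H2bc8. Low counts limit what can be read from many members: 47 of 67 replication-dependent genes never reached 10 counts. With no filter 1 of the untested genes, H3c3, passed. The cause of the low counts was not tested.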
